A study of Homo sapiens with 18 samples.

Results

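The genes described here are the protein-coding members of 11 families of developmental transcription factors: PAX, SOX, TBX, GATA, LHX, NKX, IRX, DLX, MSX and POU, and the sine oculis homeobox family. Members were taken by gene symbol, and the families were picked with earlier results of these data known. In all, 104 of the 62703 Ensembl genes in the deposited tables, and of the 20015 protein-coding genes among them, carried such a symbol. The cells were MDA-MB-231, a line established from triple-negative breast cancer, and poly(A)-selected RNA was sequenced in 5 groups of 2 distinct libraries each. The control shRNA, shEZH2 and shE2F1 groups received lentivirus for 24 h and then 2 ug/ml puromycin for 72 h, so that all 3 groups carry a viral vector and were drug-selected. The DMSO and GSK126 groups received no virus and were exposed for 72 h to vehicle or to 1 uM GSK126, a small molecule that competes with the methyl donor of EZH2. Each knockdown used 1 hairpin label per gene, all groups are 1 cell line, and the labels do not say whether replicates were separate cultures, so p-values measure only the spread between these libraries. The shEZH2 and shE2F1 comparisons share the control shRNA libraries.

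These families encode DNA-binding proteins that set cell identity in the embryo, and most are used in a few tissues only. EZH2 is the methyltransferase of Polycomb repressive complex 2 (PRC2), which places trimethylation on lysine 27 of histone H3 over the CpG-rich promoters of such genes where they are off. E2F1 activates genes of the cell cycle. The label of the set as classic Polycomb targets is background: neither the histone mark nor EZH2 binding is among the measurements used here.

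The libraries held 13198932 to 20055550 expected counts. EZH2 was at 90.78 and 102.07 TPM (transcript abundance scaled by gene length and library) in control shRNA and at 31.86 and 26.47 TPM in shEZH2, a log2 change of -1.79 ± 0.12 (SE; adjusted p = 2.4e-06, edgeR quasi-likelihood test). E2F1 was at 81.58 and 74.69 TPM in control shRNA and at 16.13 and 14.55 TPM in shE2F1, a log2 change of -2.54 ± 0.24 (adjusted p = 1.52e-05, edgeR). E2F1 was also lower in shEZH2, at 40.08 and 20.02 TPM, with a log2 change of -1.59 ± 0.23 (adjusted p = 0.000172, edgeR). EZH2 in GSK126 was at 83.41 and 81.77 TPM against 76.87 and 72.76 TPM in DMSO. Of the cell line's marker genes, VIM, CD44, AXL, ZEB1 and SNAI2 were present in every library, ESR1, PGR and FOXA1 were at or near 0, ERBB2 was at 20 to 35.62 TPM, CDH1 reached 4.5 TPM in shE2F1, and the HEK293T markers NEFL, NEFM and INA, which would show the virus producer cells, were at 0 in all 10 libraries, with LIN28B at 0.05 TPM in 1 of them.

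A member was called silent where it stood under 0.5 TPM in all 4 control libraries (control shRNA and DMSO), and expressed otherwise. By this division 73 members (70.2%) were silent and 31 expressed, while 35.4% of all protein-coding genes were silent. Of the silent members, 38 had no count in any of the 10 libraries, where the limit that a count of 0 allows (3 counts) lay between 0.1496 and 0.2273 CPM (counts scaled by the library total). The members just inside the division were TBX6, DLX3 and DLX1, with highest control values of 0.36, 0.38 and 0.40 TPM, and those just outside were SOX18, LHX9 and SIX3 with 0.59, 0.71 and 0.84 TPM. A list of 74 other developmental transcription factors, among them OTX, FOX, HAND and GLI genes, held 45 silent genes (60.8%).

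Families differed in how much of them was expressed. Of the 6 sine oculis homeobox genes 5 were expressed, and of the 6 GATA and the 6 IRX genes 3 each. Of the 19 SOX genes 6 were expressed and 9 had no count in any library. Expression was limited to 2 of 14 NKX genes, 1 of 9 PAX genes, 2 of 13 TBX genes and 1 of 6 DLX genes. The LHX family had 3 of 8 expressed, the POU family 4 of 15 and the MSX pair 1 of 2.

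The DNA before the start sites was read from hg38, 250 bases for each gene, because the families are known for CpG-rich promoters. CpG density was expressed as observed over expected CpG, where 1 is the number expected from the base content. Among silent members 53 of 73 (72.6%) had a value over 0.6 and the median was 0.728. Among the other silent protein-coding genes the share was 29.8% and the median 0.337. The expressed members had a median of 0.67, and the other expressed protein-coding genes 0.765. The median of the silent members was thus nearer to that of the other expressed genes than to that of the other silent genes. The E2F motif TTTCGCGC or TTTGGCGC, searched on both strands, was in 0 of the 104 member stretches and in 1.1% of all protein-coding genes' stretches; the letters TATAAA, also on both strands, were in 5 members (4.81%) and in 10% of all.

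**Figure D1:**
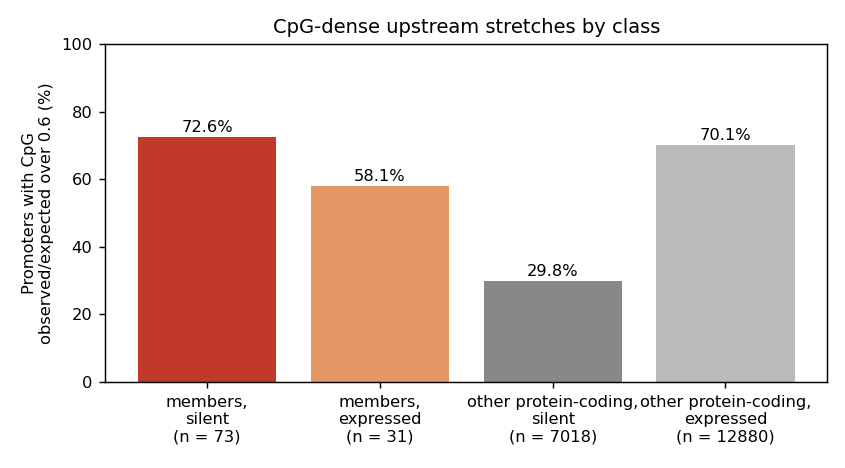
Share of protein-coding genes, in percent, whose 250 bases before the start site have an observed over expected CpG ratio above 0.6, for silent and expressed members and for the other silent and expressed protein-coding genes. The bar of the silent members (72.6%) is close to that of the other expressed genes (70.1%) and above that of the other silent genes (29.8%).

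The 150 bases before the start sites of 5 members are printed to show this range, from RefSeq (build GRCh38.p14), which held an entry for 70 of the 104 members. They are read 5′ to 3′ on the gene's strand, and capitals mark each CpG. TBX20, a heart factor, is an example with many CpG among the members with no count in any library and an entry. PAX9 is the silent member that reached 0.5 TPM, SOX4 and SIX2 are the called members with the largest rise and fall in shEZH2, and GATA6 rose in shE2F1. DLX4, IRX3, IRX5 and SOX15 have no entry.
TBX20, chr7:35254101-35254250, minus strand, 24 CpG: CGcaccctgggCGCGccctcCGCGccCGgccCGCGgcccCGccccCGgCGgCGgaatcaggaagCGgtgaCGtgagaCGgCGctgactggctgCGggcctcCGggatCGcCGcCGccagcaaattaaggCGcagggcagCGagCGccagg
PAX9, chr14:36657418-36657567, plus strand, 6 CpG: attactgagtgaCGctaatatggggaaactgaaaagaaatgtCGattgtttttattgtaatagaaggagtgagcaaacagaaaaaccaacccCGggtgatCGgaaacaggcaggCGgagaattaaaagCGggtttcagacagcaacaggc
SOX4, chr6:21593601-21593750, plus strand, 8 CpG: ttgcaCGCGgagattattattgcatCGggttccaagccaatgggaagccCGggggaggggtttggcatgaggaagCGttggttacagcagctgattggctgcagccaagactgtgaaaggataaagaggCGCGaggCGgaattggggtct
SIX2, chr2:45009453-45009602, minus strand, 14 CpG: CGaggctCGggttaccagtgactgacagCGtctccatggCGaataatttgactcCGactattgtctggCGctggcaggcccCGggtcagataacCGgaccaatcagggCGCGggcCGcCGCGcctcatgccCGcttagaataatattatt
GATA6, chr18:22169439-22169588, plus strand, 10 CpG: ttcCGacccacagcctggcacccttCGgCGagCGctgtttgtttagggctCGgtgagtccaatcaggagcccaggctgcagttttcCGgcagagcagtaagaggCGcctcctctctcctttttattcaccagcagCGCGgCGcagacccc

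The silent members stayed low in every treated group. None of the 73 reached 0.5 TPM in both shEZH2 libraries; DLX3, a distal-less homeobox factor, was at 0.67 TPM in the second of them and at 0.15 TPM in the first. One, PAX9, reached it in both shE2F1 libraries and in both GSK126 libraries. Over all 7091 silent protein-coding genes the share that reached 0.5 TPM in both libraries was 1.92% in shEZH2, 2.26% in shE2F1 and 0.606% in GSK126, so that 0 or 1 of 73 is close to this background. Because silent was defined on the control libraries, these counts are a description.

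Summed over the 73 silent members, control shRNA held 3.9 and 3.74 CPM and shEZH2 held 2.88 and 3.63. The shE2F1 libraries held 4.78 and 6.55, DMSO 3.58 and 3.75, and GSK126 4.92 and 5.12. The sums were also taken without SOX21 and without PAX9, a choice made after seeing the data. Without SOX21 they were 3.39 and 3.07 in control shRNA and 2.88 and 3.63 in shEZH2, which overlap, and without PAX9 they were 3.33 and 3.18 in control shRNA and 3.09 and 4.73 in shE2F1, which also overlap. Without PAX9 the GSK126 libraries, at 3.8 and 4.02, still lay above DMSO at 3.28 and 3.26. The 7018 other silent protein-coding genes summed to 325 and 291 CPM in control shRNA, 595 and 641 in shEZH2, 728 and 686 in shE2F1, 367 and 341 in DMSO and 494 and 468 in GSK126. Without the 100 highest of them, the sums were 253 and 219 in control shRNA, 365 and 395 in shEZH2, and 521 and 480 in shE2F1. The sum of the other silent genes was higher than in the controls in both knockdowns and in GSK126. That of the silent members was not higher in both shEZH2 libraries, with or without SOX21. Both sets were defined by low values in these control libraries, which holds the control sums down, so the sums are a description. The share of the other silent genes with no count was 77.4% and 79.6% in control shRNA, 78.5% and 76.5% in shEZH2, and 70% and 73.2% in shE2F1.

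**Figure D2:**
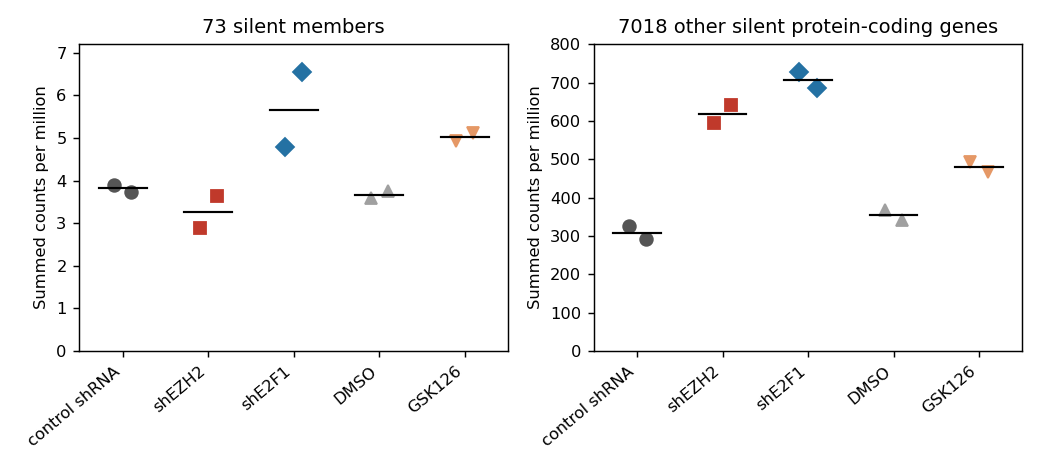
Summed CPM in each library (points, with the group mean as a line) of the 73 silent members on the left and the 7018 other silent protein-coding genes on the right, both axes from 0. The shEZH2 points lie under the control shRNA points on the left (2.88 and 3.63 against 3.9 and 3.74) and above them on the right (595 and 641 against 325 and 291).

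PAX9, a paired-box factor of tooth and thymus development (chr14:36657568-36679362), had 11 and 10 counts in control shRNA, 7 and 8 in shEZH2, 33 and 31 in shE2F1, 6 and 9 in DMSO and 19 and 19 in GSK126. On the TPM scale these were 0.24 and 0.24, 0.21 and 0.20, 0.80 and 0.68, 0.11 and 0.20, and 1.62 and 0.56. The equal GSK126 counts thus stood beside unequal TPM. TPM also divides by the length of the isoforms assigned, and whether this accounts for the gap was not tested. Neither rise passed the test, with a log2 change of 1.44 (adjusted p = 0.0144, edgeR) in shE2F1 and 1.46 (adjusted p = 1, edgeR) in GSK126. Without the filter on low counts PAX9 was called in shE2F1. Its neighbour NKX2-8, 75 kb away, had no count in the control shRNA, shEZH2 and DMSO libraries, 3 and 4 counts in shE2F1 and 1 and 1 in GSK126. NKX2-8 was named after its values were seen, as the 1 member under 0.1 TPM in all controls that reached 0.1 TPM in both libraries of a treated group.

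SOX21 and SOX18 were at 0 counts in both shEZH2 libraries. SOX21, a SOX factor of the nervous system, had 10 and 12 counts in control shRNA and 5 and 7 in shE2F1. SOX18, a factor of blood and lymph vessels, had 13 and 4 counts in control shRNA and 4 and 4 in shE2F1. A fold was taken with 3 counts over the shEZH2 group as the floor and the control shRNA counts as exact. By it SOX21 was 6.07-fold and SOX18 4.69-fold lower in shEZH2 than in control shRNA. Counting error of the 22 and 17 control counts was left out, so these are not lower limits. Without the first control shRNA library, left out after seeing the data, this fold was 2.31 for SOX18, and DMSO held 3 and 2 counts of SOX18. Neither passed the filter on low counts. Without that filter 9 members were called in this comparison, both of these among them, beside 3243 of all 27986 genes. Their transcripts hold 55.6% and 69.3% G and C. Both were chosen after their values were seen.

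The 31 expressed members were modest in level. Averaged over the 4 control libraries, 8 were over 10 TPM, 15 between 1 and 10 TPM and 8 under 1 TPM, with a median of 4.47 TPM against 17.5 TPM over all expressed protein-coding genes. The highest was SOX9, a factor of cartilage and epithelial progenitors, at 33.02 and 32.39 TPM in control shRNA and 42.33 and 32.42 TPM in DMSO. Lower in the order were SOX13 (25.95 TPM on average), SIX5 (19.09), GATA2 (14), SIX4 (13.91) and GATA6 (13.61), and the ranges of SOX13 and SIX5, and of GATA2, SIX4 and GATA6, overlapped over the 4 libraries. GATA3, which directs luminal fate in the mammary gland, was at 13.75 and 8.67 TPM in control shRNA.

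**Figure D3:**
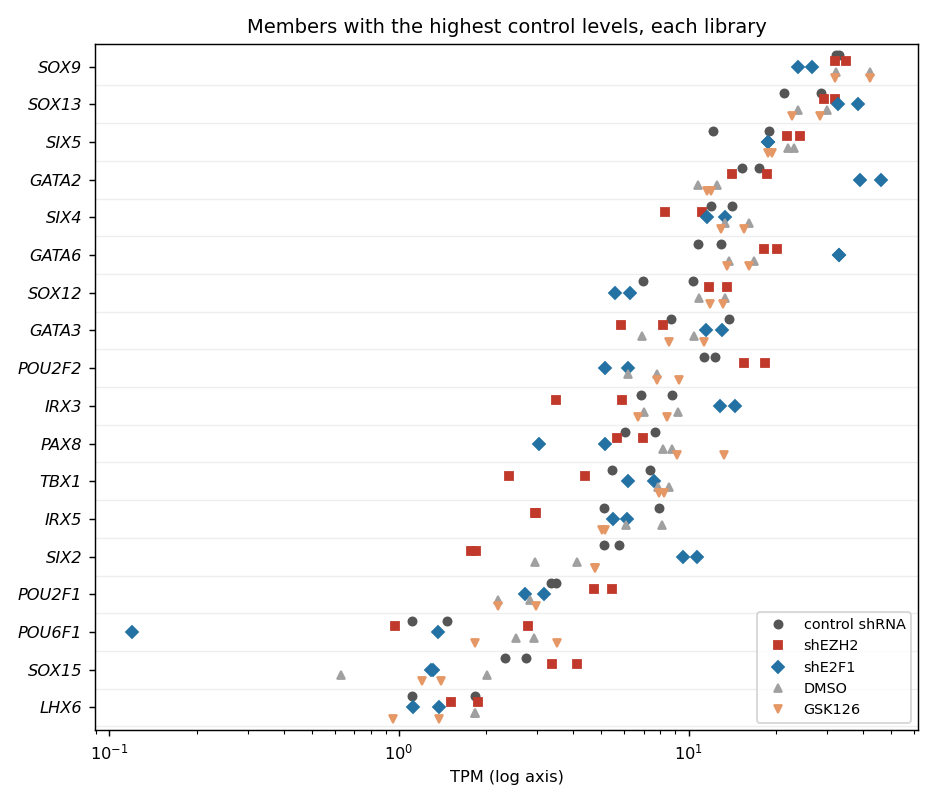
Level in TPM (log axis) of the expressed members with the highest mean over the control libraries, with 1 point per library and the symbol marking the group. SOX9 stands highest (35.04 TPM on average), the 2 shE2F1 points of GATA2 and GATA6 lie right of all others, and the 2 shEZH2 points of SIX2 and IRX5 lie left of all others.

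In shEZH2 against control shRNA, a few expressed members rose and more fell. Of the 104 members 32 had enough counts to be tested, 30 expressed and the silent DLX3 and PAX9. A member counted as called where the adjusted p was below 0.01 and the change exceeded 2-fold. By this rule 2 were higher and 5 lower. These are 6.25% and 15.6% of those tested, beside 7.52% and 10.7% of all 15373 genes tested. The median log2 change was -0.12 over the tested members and -0.02 over all genes. The median absolute log2 change was 0.47 over the tested members and 0.54 over all genes.

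SOX4, a factor of progenitor cells and of epithelial-mesenchymal transition (chr6:21593751-21598619), rose most. It was at 0.52 and 0.30 TPM in control shRNA, 2.23 and 3.14 in shEZH2, 0.73 and 0.67 in shE2F1, 1.15 and 1.03 in DMSO and 2.21 and 1.62 in GSK126. Both shEZH2 values lay above those of control shRNA, and so did the DMSO values. With library totals adjusted by the TMM factors of edgeR, the first GSK126 library (6.87 CPM) lay above the first shEZH2 library (6.48 CPM). The log2 change in shEZH2 was 2.53 ± 0.32 (SE; adjusted p = 8e-05, edgeR), on 32 and 17 counts against 86 and 164.

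DLX4, a distal-less homeobox factor (chr17:49968588-49974959), was at 1.09 and 0.61 TPM in control shRNA and 2.55 and 4.08 TPM in shEZH2. Its log2 change was 1.85 ± 0.43 (adjusted p = 0.00377, edgeR), on 16 and 12 counts against 34 and 55. The call was lost without the second shEZH2 library (log2 change 1.70, adjusted p = 0.0302, edgeR), without either control shRNA library (1.97 and 1.74, adjusted p = 0.0169 and 0.0223, edgeR) and in DESeq2 (1.87, adjusted p = 0.0134). DLX3, 15 kb from it, had 9 and 8 counts in control shRNA and 3 and 18 in shEZH2.

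Among the 5 that fell was SIX2, a homeobox factor that works with EYA cofactors and keeps kidney progenitors undifferentiated (chr2:45005182-45009452). It was at 5.09 and 5.73 TPM in control shRNA, 1.85 and 1.77 in shEZH2, 9.57 and 10.72 in shE2F1, 2.94 and 4.11 in DMSO and 4.75 and 4.76 in GSK126. The shEZH2 values were the lowest and the shE2F1 values the highest of the 10. The log2 change in shEZH2 was -1.77 ± 0.21 (adjusted p = 4.95e-05, edgeR).

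SIX4, of the same family, was at 14.12 and 11.97 TPM in control shRNA and at 11.12 and 8.31 TPM in shEZH2 and was not called. Its log2 change was -0.04 on the count scale, which unlike TPM does not divide by isoform length.

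IRX3 and IRX5, Iroquois homeobox factors 644 kb apart on chromosome 16, both fell. IRX3 (chr16:54283304-54286787) was at 8.79 and 6.87 TPM in control shRNA and 5.88 and 3.48 in shEZH2, with a log2 change of -1.45 ± 0.29 (adjusted p = 0.00146, edgeR). Its fall was 2.74-fold on counts and 1.67-fold in mean TPM. IRX5 (chr16:54930865-54934485) was at 7.92 and 5.09 TPM in control shRNA and 2.95 and 2.97 in shEZH2, with a log2 change of -1.26 ± 0.23 (adjusted p = 0.000809, edgeR). The pair holds fractional counts, because 2.81% and 3% of their 50-base stretches occur in another gene, and reads can be split between them.

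TBX1, a T-box factor of the pharyngeal arches and heart (chr22:19756703-19783593), was at 7.34 and 5.43 TPM in control shRNA and 2.40 and 4.39 in shEZH2. Its log2 change was -1.34 ± 0.24 (adjusted p = 0.000712, edgeR), on 162 and 109 counts against 37 and 56. The fall was 2.53-fold on counts and 1.88-fold in mean TPM. GNB1L, which overlaps TBX1 on the other strand, was not called in this comparison (log2 change 0.50, adjusted p = 0.0215, edgeR); whether counting used the strand is not given in the sources used here.

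The calls of IRX3, IRX5 and TBX1 did not hold with a correction for base composition. Their transcripts hold 63.9%, 59% and 70.2% G and C, where the tested members have a median of 54.8% and all tested genes 48%. With a correction for G and C content and length the log2 changes were -0.97 (adjusted p = 0.0106, edgeR) for IRX3, -0.88 (0.00486) for IRX5 and -0.73 (0.0166) for TBX1, and none of the 3 was called. SOX4, DLX4 and SIX2 were called with it, as was NKX3-2, among 5 calls, 3 higher and 2 lower. These were 5 of the 32 tested members, beside 2499 of all 15373 genes tested. The transcripts of DLX4, SIX2 and NKX3-2 hold 61.5%, 61.5% and 62.4% G and C, and that of SOX4 52.5%. Over the 8 alternatives other than leaving out 1 library, the log2 change of SIX2 ranged from -1.78 to -1.33. IRX5 was also lost without the first control shRNA library (-0.95, adjusted p = 0.00575, edgeR), and IRX3 without that library (-1.24, adjusted p = 0.0103, edgeR) or the second shEZH2 library (-0.95, adjusted p = 0.00775, edgeR).

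**Figure D4:**
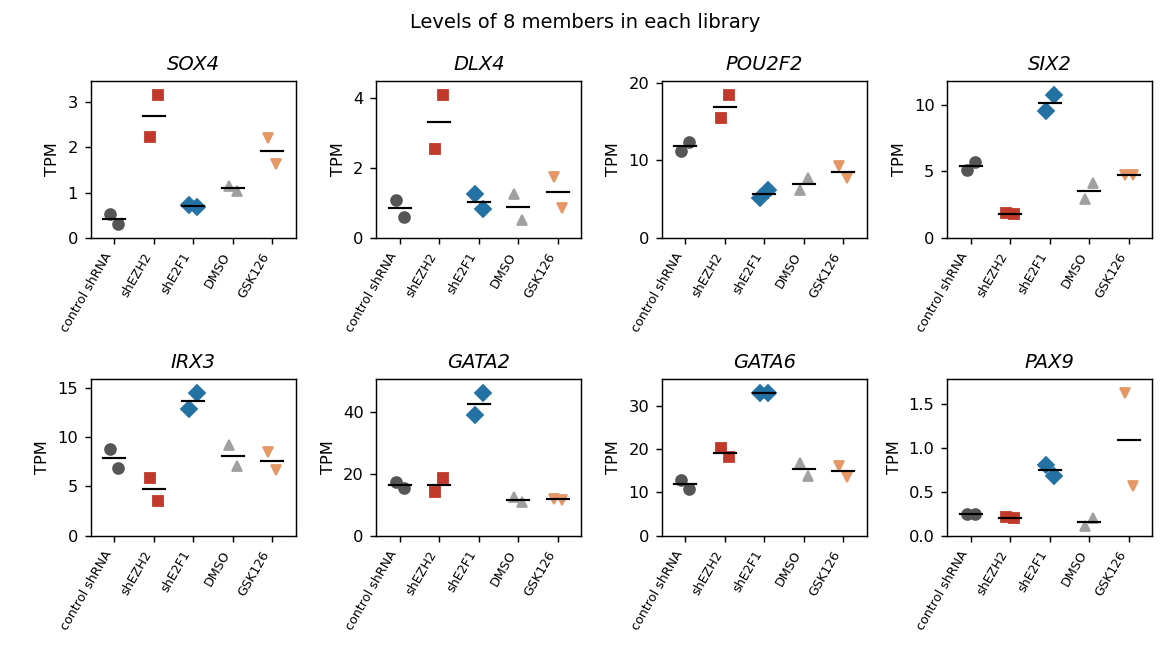
Level in TPM of SOX4, DLX4, POU2F2, SIX2, IRX3, GATA2, GATA6 and PAX9 in each of the 10 libraries, each axis from 0, with 2 points per group and the group mean as a line. The group means of SOX4 and DLX4 are highest in shEZH2, SIX2 is lowest in shEZH2 (1.85 and 1.77) and highest in shE2F1 (9.57 and 10.72), and GATA2 and GATA6 are highest in shE2F1.

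In shE2F1 against control shRNA, 2 GATA factors and LHX4 rose, and POU2F2, POU6F1 and PAX8 were among those that fell. Of the 32 tested, 3 were higher (9.38%) and 5 lower (15.6%), beside 5.6% and 5.96% of all genes tested. The median absolute log2 change was 0.64 over the tested members and 0.41 over all genes.

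GATA6, a factor of endoderm and heart (chr18:22169589-22202528), was at 12.94 and 10.78 TPM in control shRNA, 20.27 and 18.20 in shEZH2, and 33.00 and 33.01 in shE2F1. The 3 groups did not overlap. The log2 change was 1.3 ± 0.11 (adjusted p = 6.55e-06, edgeR) in shE2F1, and in shEZH2 the gene was not called, since its change stayed under 2-fold. GATA6-AS1, on the other strand, had a log2 change of 2.85 (adjusted p = 0.000131, edgeR) in shE2F1 with 33.6 counts per library on average, against 743 for GATA6.

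GATA2, needed for blood progenitors (chr3:128479427-128493201), was at 17.45 and 15.28 TPM in control shRNA, 14.16 and 18.71 in shEZH2 and 39.02 and 46.20 in shE2F1. The shE2F1 libraries lay above the other 8. The log2 change was 1.1 ± 0.13 (adjusted p = 6.04e-05, edgeR). GATA2-AS1, on the other strand, held 99 counts per library on average against 421 for GATA2 and was not called there (log2 change 0.44, adjusted p = 0.0715, edgeR). In shEZH2 against shE2F1 it was lower (log2 difference -1.84, adjusted p = 2.41e-05, edgeR). GATA3 was at 13 and 11.5 TPM in shE2F1, within reach of its control values, and was not called.

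LHX4, a LIM homeobox factor of the pituitary (chr1:180230264-180278984), was at 0.60 and 0.88 TPM in control shRNA and 1.93 and 2.42 TPM in shE2F1. The log2 change was 1.65 ± 0.26 (adjusted p = 0.000464, edgeR), on 38 and 42 counts against 146 and 135. ACBD6, which overlaps it on the other strand with 950 counts per library on average, was not called there (log2 change -0.25, adjusted p = 0.0516, edgeR).

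Among those that fell was POU2F2, a POU factor of B lymphocytes (chr19:42086110-42196585). It was at 11.28 and 12.34 TPM in control shRNA, 15.51 and 18.42 in shEZH2 and 5.13 and 6.16 in shE2F1. These 3 groups did not overlap. The log2 change in shE2F1 was -1.41 ± 0.16 (adjusted p = 5.17e-05, edgeR). DMSO, at 6.16 and 7.79 TPM, and GSK126, at 9.25 and 7.8 TPM, lay below control shRNA. The lower DMSO value met the higher shE2F1 value.

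The other falls were less steady. PAX8, a factor of thyroid and kidney and the 1 expressed PAX gene (chr2:113215997-113278921), was at 7.65 and 6.03 TPM in control shRNA and 5.15 and 3.05 in shE2F1, with a log2 change of -1.27 ± 0.25 (adjusted p = 0.00213, edgeR). Its fall was 2.41-fold on counts and 1.67-fold in mean TPM. It was lost without the second shE2F1 library (-1.07, adjusted p = 0.0318, edgeR) and without the first control shRNA library (-0.93, adjusted p = 0.0175, edgeR), and PAX8-AS1, which overlaps it, held 841 counts per library on average against 138 for PAX8.

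POU6F1, a POU factor of the brain (chr12:51186936-51218062), had 32 and 26 counts in control shRNA and 9 and 8 in shE2F1, with a log2 change of -1.91 ± 0.43 (adjusted p = 0.00447, edgeR). It was lost when any 1 of these 4 libraries was left out (adjusted p from 0.017 to 0.0429, edgeR) and in DESeq2 (adjusted p = 0.0333). On the TPM scale its groups overlapped, at 1.46 and 1.11 against 0.12 and 1.36.

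**Figure D5:**
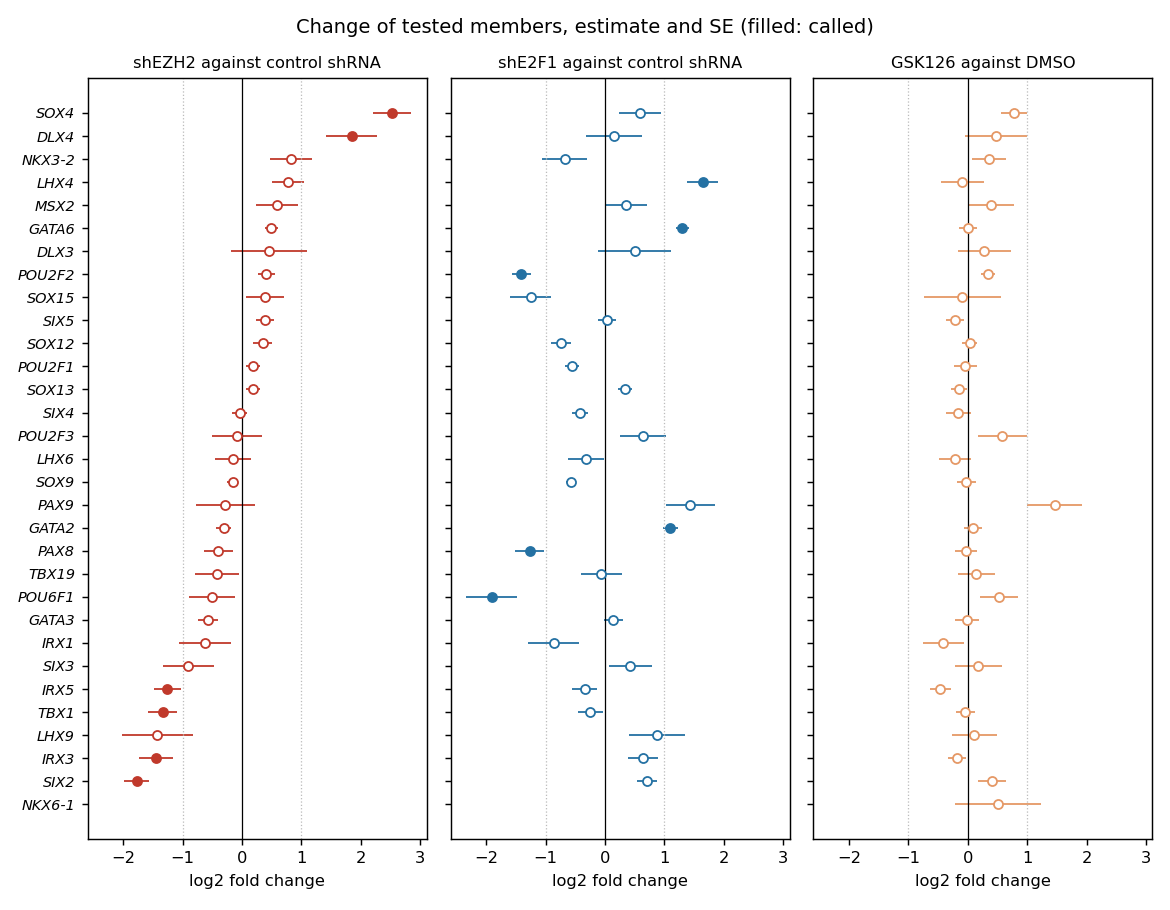
Log2 fold change with its SE of tested members in shEZH2 and shE2F1 against control shRNA and in GSK126 against DMSO, ordered by the change in shEZH2, with filled points for called members. Filled points number 6 in shEZH2, 6 in shE2F1 and 0 in GSK126, and dotted lines mark a change of 2-fold.

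The direct test of shEZH2 against shE2F1 called 13 of the 32 tested members. Of these 7 were higher (21.9%) and 6 lower (18.8%), beside 10.4% and 12.9% of all genes tested. The median absolute log2 difference was 0.9 over the tested members and 0.6 over all genes. SIX2 differed most, by a log2 value of -2.48 ± 0.20 (adjusted p = 2.85e-06, edgeR). IRX3, at 12.80 and 14.46 TPM in shE2F1, was lower in shEZH2 by a log2 value of -2.10 ± 0.28 (adjusted p = 8.67e-05, edgeR), and GATA2 by -1.41 ± 0.13 (adjusted p = 6.34e-06, edgeR). Higher in shEZH2 were, among others, SOX4 (1.94 ± 0.30) and POU2F2 (1.82 ± 0.16), each with an adjusted p of 0.000247 or less in edgeR.

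SOX12, of the same SOX subgroup as SOX4, was at 13.59 and 11.73 TPM in shEZH2 and 6.26 and 5.56 in shE2F1, a log2 difference of 1.09 ± 0.17 (adjusted p = 0.000241, edgeR). It fell under the 2-fold limit without the second shE2F1 library (0.98).

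Another 6 calls did not hold when some single libraries were left out, and DESeq2 did not call DLX4, NKX3-2, LHX9 or PAX9 among them. DLX4 (log2 difference 1.70 ± 0.41) was lost without the second shEZH2 (1.54) or the second shE2F1 library (1.25). NKX3-2, a factor of the axial skeleton (1.5 ± 0.37), was lost without the second shEZH2 (1.13) or either shE2F1 library (1.41 and 1.58), and SOX15 (1.64 ± 0.35) without the same 3 libraries (1.48, 1.73 and 1.56). LHX9, a LIM homeobox factor of the gonad (-2.30 ± 0.56, on 7 and 3 counts against 43 and 23), was lost without the second shEZH2 (-1.64) or the first shE2F1 library (-1.88). PAX9 (-1.72 ± 0.43) was lost without any 1 of the 4 libraries (-1.81 to -1.61). TBX1 (-1.09 ± 0.24) was lost without the first shEZH2 (-0.99) or first shE2F1 library (-0.97) and with the correction for base composition (-0.42). MPDU1, which overlaps SOX15 on the other strand with 1030 counts per library on average against 26 for SOX15, was itself lower in shEZH2 than in shE2F1, by a log2 value of -0.81, opposite to SOX15.

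In GSK126 against DMSO, 0 of 33 tested members were called by edgeR, beside 0% of all 14632 genes tested. At an unadjusted p under 0.05 stood 4 members (12.1%), against 577 genes (3.94%) in all. These were SOX4 (log2 change 0.78), PAX9 (1.46), POU2F2 (0.34) and IRX5 (-0.46), each with an adjusted p of 1 in edgeR, and they are named after their values were seen. For each of the 4, the GSK126 values did not overlap those of DMSO in CPM from TMM-adjusted library totals. Picking by p in these same libraries favours this, so it adds no support. DESeq2 called 0 members and 10 genes in all. Same-numbered DMSO and GSK126 libraries deviated together (correlation 0.663), and with a replicate block edgeR called 0 members and 68 genes in all. The median absolute log2 change was 0.18 over the tested members and 0.11 over all genes.

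Depletion and inhibition were compared directly as the shEZH2 effect minus the GSK126 effect. Of the 33 tested members 1 was higher (3.03%) and 2 lower (6.06%), beside 5.13% and 8.67% of all genes tested. The median absolute log2 difference was 0.55 over the tested members and 0.57 over all genes. SOX4 differed by a log2 value of 1.75 ± 0.40 (adjusted p = 0.00506, edgeR), SIX2 by -2.17 ± 0.32 (adjusted p = 0.000404, edgeR) and TBX1 by -1.28 ± 0.29 (adjusted p = 0.00448, edgeR). SIX2 was called whichever library was left out. SOX4 was lost without the second shEZH2 (1.45), the second control shRNA (1.44), the second GSK126 (1.59) or the first DMSO library (1.73). TBX1 was lost without the first shEZH2 (-1.19), second shEZH2 (-1.40), first control shRNA (-1.07), first GSK126 (-1.24) or first DMSO library (-1.21), and with the correction for base composition (-0.67, adjusted p = 0.0802, edgeR). The 2 effects come from experiments that differ in virus, selection and vehicle, which cannot be told apart from the difference.

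Of 18 listed cofactors of the families 9 were tested in the knockdowns. In shEZH2 1 was lower (11.1%), beside 10.7% of all genes tested. This was ZFPM1, a partner of GATA factors, at 3.22 and 2.06 TPM in control shRNA and 1.09 and 0.79 in shEZH2 (log2 change -1.51 ± 0.30, adjusted p = 0.00149, edgeR). None was called in shE2F1 or GSK126. In shEZH2 against shE2F1, ZFPM1 (-1.36) and TLE2 (-3.49), a Groucho-type corepressor, were lower (22.2%, beside 12.9% of all genes tested). TLE2 was low, at 0.27 and 0 TPM in shEZH2 and 1.12 and 0.67 TPM in shE2F1, and its SE was 0.91. The SIX2 partners EYA3 and EYA4 were expressed, EYA1 stood at 0.14 TPM or less and EYA2 at 0, and none was called.

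Of the 74 other developmental transcription factors, 28 were tested in the knockdowns. In shEZH2, 3 were higher (10.7%) and 7 lower (25%), beside 7.52% and 10.7% of all genes tested. GLI3 (log2 change 1.68), PBX3 (1.26) and NR2F1 (1.25) rose, and PITX1 (-2.52), GLI2 (-2.32), MEIS3 (-2.09), FOXA2 (-1.74) and FOXQ1 (-1.33) fell most. GLI2 and GLI3 are both effectors of Hedgehog signalling and moved in opposite directions. In shE2F1, 5 were higher (17.9%) and 4 lower (14.3%), beside 5.6% and 5.96% of all genes tested. The higher were TFAP2C (1.78), FOXC1 (1.40), MEIS3 (1.21), KLF4 (1.2) and NR2F1 (1.07), and among the lower were VAX2 (-1.76), HES1 (-1.17) and RUNX2 (-1.06).

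Between the knockdowns, 5 of these were higher in shEZH2 (17.9%) and 8 lower (28.6%), beside 10.4% and 12.9% of all genes tested. The higher were HEY1 (3.78), PBX3 (2.17), GLI3 (1.71), HES1 (1.17) and RUNX2 (1.17), and the lower were led by MEIS3 (-3.30), TFAP2C (-3.04), GLI2 (-1.97), PITX1 (-1.65) and FOXQ1 (-1.56). HEY1 was low, at 1.02 and 1.34 TPM in shEZH2 and 0.13 and 0.08 TPM in shE2F1, and its SE was 0.9. None of 26 tested was called in GSK126. In the difference of effects 2 were higher (7.14%) and 6 lower (21.4%), beside 5.13% and 8.67% of all genes tested. TFAP2A (1.18) and PBX3 (1.08) were higher, and the lower were led by MEIS3 (-2.47), PITX1 (-2.40), GLI2 (-2.33), TFAP2C (-1.66) and FOXA2 (-1.58). The median log2 change of the list was -0.13 in shEZH2 and -0.19 in shE2F1.

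Of the PRC2 genes themselves, SUZ12, EED and EZH1 were not called in shEZH2. EZH1, the paralog of EZH2, was at 15.67 and 15.81 TPM in control shRNA and rose to 34.56 and 42.28 TPM in shE2F1 (log2 change 1.24 ± 0.12, adjusted p = 2.5e-05, edgeR). Genes that mark the state of the cell line moved as well. AXL fell in both knockdowns (-1.83 in shEZH2 and -2.23 in shE2F1), VIM fell in shEZH2 (-1.33) and SNAI2 fell in shE2F1 (-1.16). CD44 was not called in either. In shEZH2 the log2 changes of ZEB1 (0.6, adjusted p = 0.000979, edgeR) and SNAI2 (-0.94, adjusted p = 0.000898, edgeR) were under the 2-fold limit. CDH1, the epithelial cadherin, rose in both (2.23 and 3.91). Summed over the 5 markers of the cell line, most of it VIM, the level was 3910 to 4000 TPM in control shRNA, 1920 to 2160 in shEZH2, 3320 to 3610 in shE2F1, 3550 to 3810 in DMSO and 3390 to 3500 in GSK126. Their part in the changes of the members was not tested, and in bulk RNA fewer expressing cells and less RNA per cell cannot be told apart.

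Of 20 adjacent member pairs within 1000 kb, 11 were both silent, 4 both expressed and 5 mixed. SIX3, 59.1 kb from SIX2, was at 0.84 and 0.58 TPM in control shRNA and 0.48 and 0.39 TPM in shEZH2 and was not called.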

How the data were processed

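Poly(A)-selected RNA of MDA-MB-231 cells was analysed in 10 distinct libraries, 2 for each of 5 groups; the 18 records include 8 exact repeats, and each distinct library was used 1 time. Groups came from the labels. The members and gene lists were chosen with earlier results of these data known.

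The authors mapped reads with STAR to hg38 and estimated abundance with RSEM on Ensembl 108; the submitters' processing notes name STAR 2.7.2b and RSEM 1.3.1. The deposited files hold RSEM expected counts, in which reads that map to several genes are divided, and TPM as computed by the authors, which was used for levels only. The kit was strand-specific, and the strand setting of the counting is not given in the sources used here. The deposited effective length (another column) was not used. Names and coordinates came from GENCODE 44 (Ensembl 110).

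Expected counts were rounded and tested with edgeR 4.0.16 in R 4.3.3 (quasi-likelihood test, filterByExpr, TMM, Benjamini-Hochberg adjustment over all genes tested). A call required an adjusted p below 0.01 with over 2-fold change. Knockdown comparisons were fitted on 6 libraries, GSK126 against DMSO on 4, and the difference of effects on 10. Residual degrees of freedom were 3, 2 and 5. Alternatives were DESeq2 1.42.0, its size factors in edgeR, no filter, a replicate block, correction for G and C content and length by splines, other sets of libraries, other thresholds and leaving out each library. The fits were tested on simulated counts. Intervals and limits for 0 counts cover counting error only, and folds against a 0 count leave out the counting error of the control.

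Genes named are the members called in any comparison, the 20 expressed members highest in the controls, silent members reaching 0.5 TPM in both libraries of a treated group, EZH2, E2F1, SUZ12, EED and EZH1, and up to 5 called genes per direction and comparison from the other lists; exceptions are stated. A few genes that the rule names enter the counts but are not reported here.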

Additional observations from a re-analysis of the deposited data

Results flagged for a closer look

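For 3 of the 33 tested members (9.09%) the change under EZH2 depletion differed from that under GSK126. The difference itself was tested (edgeR, all 10 libraries). Of all 15773 genes tested, 5.13% were higher and 8.67% lower. The 2 experiments also differ in virus, selection and vehicle, which cannot be told apart from the difference. SOX4 differed by a log2 value of 1.75, SIX2 by -2.17 and TBX1 by -1.28. The SOX4 estimate was positive in both (2.53 in shEZH2 and 0.78 in GSK126), while those of SIX2 and TBX1 were -1.77 and -1.34 in shEZH2 and 0.41 and -0.04 in GSK126. SIX2 was called under every alternative run. Over the 8 fits without 1 library SOX4 ranged from 1.44 to 2.17 and was no longer called in 4, those without the second shEZH2 (1.45), the second control shRNA (1.44), the second GSK126 (1.59) or the first DMSO library (1.73). TBX1 ranged from -1.47 to -1.07 and was no longer called in 5, those without either shEZH2 library (-1.19 and -1.4), the first control shRNA (-1.07), the first GSK126 (-1.24) or the first DMSO library (-1.21). With the correction for base composition TBX1 was not called either (-0.67, adjusted p = 0.0802, edgeR).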

How the results depend on the processing

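Each of the 31 called values of single members was recomputed under the alternatives, giving 378 values, of which 322 stayed called, 56 were no longer called and 0 changed direction; 15 called values stayed called throughout. Without 1 library, the number of members called ranged from 5 to 7 in shEZH2, 6 to 7 in shE2F1, 8 to 11 in shEZH2 against shE2F1 (8 without the first or the second shE2F1 library) and 1 to 4 in the difference of effects (1 without the second shEZH2 or the first DMSO library), and was 0 in GSK126. The number of silent members at 0.5 TPM in a treated group ranged from 1 to 2, with DLX3 added without the first shEZH2 library. With adjusted p under 0.05 and no limit on fold, 11 of 32 tested members passed in shEZH2, beside 8550 of all 15373 genes. In shE2F1 16 of 32 passed, beside 6879 of 15373 genes, and between the knockdowns 23 of 32, beside 9267. In the difference of effects 6 of 33 passed, beside 5780 of 15773 genes. With the correction for base composition and the replicate block together, 4 members passed in shEZH2, beside 2454 of 15373 genes. Without the filter on low counts, 6 members passed in the difference of effects, beside 2725 of 29478 genes. With 1 TPM in place of 0.5 TPM, 2 silent members reached it, LHX4 and LHX9. The causes were not tested. The labels' replicate numbers were not taken as pairs; same-numbered libraries deviated together with a correlation of 0.663 for DMSO and GSK126 and 0.041 to 0.205 among the knockdowns. With the replicate block 7, 8, 13, 0 and 4 members were called in the 5 comparisons, and GSK126 against DMSO had 68 called genes in place of 0, no member among them; without 1 library it had 37 to 43. In GSK126 against DMSO 0 members were called under all alternatives run. DESeq2 called 9 members in place of 13 between the knockdowns, beside 3137 of 27986 genes in place of 3582 of 15373. With 2 libraries per group, few counts and 1 hairpin label per gene, a member that was not called cannot be taken as unchanged.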
